A study of Mus musculus with 6 samples.

Results

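The genes described here encode the proteasome: its subunits, the activators and the inhibitor that bind it, and the chaperones that assemble it. They were taken by gene symbol (Psma, Psmb, Psmc, Psmd, Psme, Psmf or Psmg followed by a number), which gave 42 of the 17306 probe sets other than controls, each standing for 1 gene. Symbols alone chose them, and none was chosen for its level. Psmc3ip and Psme3ip1 match the pattern but encode no proteasome subunit, and are given apart. A further 9 protein-coding genes of this name pattern in RefSeq, Psma3, Psma4, Psma5, Psmb3, Psmb5, Psmc1, Psmd2, Psme2 and Psme2b, were not analysed here.

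Each array held RNA of habenula dissected from adults, 6 to 12 weeks old, of the mouse line Chat DW167, which carries a bacterial artificial chromosome transgene. In this line a tagged ribosomal protein is made in cells that use the choline acetyltransferase gene, so that their ribosomes can be pulled down with the messenger RNA they carry (translating ribosome affinity purification). The 3 immunoprecipitated (IP) arrays hold RNA of cholinergic habenular neurons, and the 3 unbound (UB) arrays hold the RNA that stayed behind in the same preparations. The labels give no treatment and no other genotype, so every array carries the transgene. They call the replicates biological, and do not say whether animals were pooled. UB is what was left after the pull-down, not a sample sorted to lack the cholinergic cells: of the 10 medial habenula markers, 8 had signal on all UB arrays, while Slc18a3 and Slc5a7 had signal on none.

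The proteasome degrades proteins marked with ubiquitin. A barrel-shaped core particle holds the peptidase sites, with outer rings of alpha subunits (Psma) and inner rings of beta subunits (Psmb). A regulatory particle of ATPases (Psmc) and other subunits (Psmd) binds ubiquitin, removes it and threads the substrate into the core. Interferon and immune cells are known for a form in which the catalytic beta subunits are replaced by Psmb8, Psmb9 and Psmb10, the immunoproteasome, which shapes peptides for presentation by major histocompatibility complex (MHC) class I molecules. Neurons depend on the proteasome at synapses, where proteins are turned over locally.

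Values are log2 levels after an offset between the fractions taken from 18 biotinylated control probe sets, and a difference is the IP mean minus the UB mean. A probe set was tested if at least 3 of the 6 arrays reached 50 on the linear scale, here called signal. A call is a limma p under 0.05 after adjustment over all 8960 tested probe sets. The IP arrays had signal on 7533 to 7579 probe sets and the UB arrays on 8618 to 8659. The number of arrays limits every value. The offset itself had a standard error (SE) of 0.212 over arrays, which is larger than some of the differences below. Medial habenula markers were higher in IP for all 10 genes of that list, and astrocyte and oligodendrocyte markers were lower for all 7 and all 6. Of these, 2, 5 and 4 had signal in 1 fraction alone and so had to differ. Slc18a3, the vesicular acetylcholine transporter gene, was at least 68.8-fold higher in IP.

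Of the 42 genes, 40 were tested. In IP, 19 were called higher and 5 lower, against 30.9% and 43.5% of all tested probe sets. Of the 19, Psmb8, Psmb9 and Psmd9 passed the signal filter through the IP arrays alone and so had to differ. The 19 are 47.5% of the 40. By at least 2-fold, 8 were called higher (background 14.3%) and 1 lower (background 28.0%). The median difference of the 40 was 0.42, and that of all tested probe sets was -0.17. The members' differences had a standard deviation (SD) of 0.93 over genes, against 2.01 over all tested probe sets. For 22 members all 3 IP values lay above all 3 UB values, and for 5 all lay below, where 33.4% and 46.6% of all tested probe sets did so. Leaving out single arrays moved these counts: 11 were called higher without IP replicate 3 and 12 without UB replicate 1. When IP replicate 1, IP replicate 2 or UB replicate 3 was left out, 2 were called lower. Each fit with arrays left out, here and below, took the control offset anew from the arrays kept. That shifts all genes alike, so a call or sign that moved need not rest on the gene's own level on that array. A difference between IP and UB cannot tell apart the number of cells of a type, the RNA per cell and the share of it on tagged ribosomes.

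**Figure D1:**
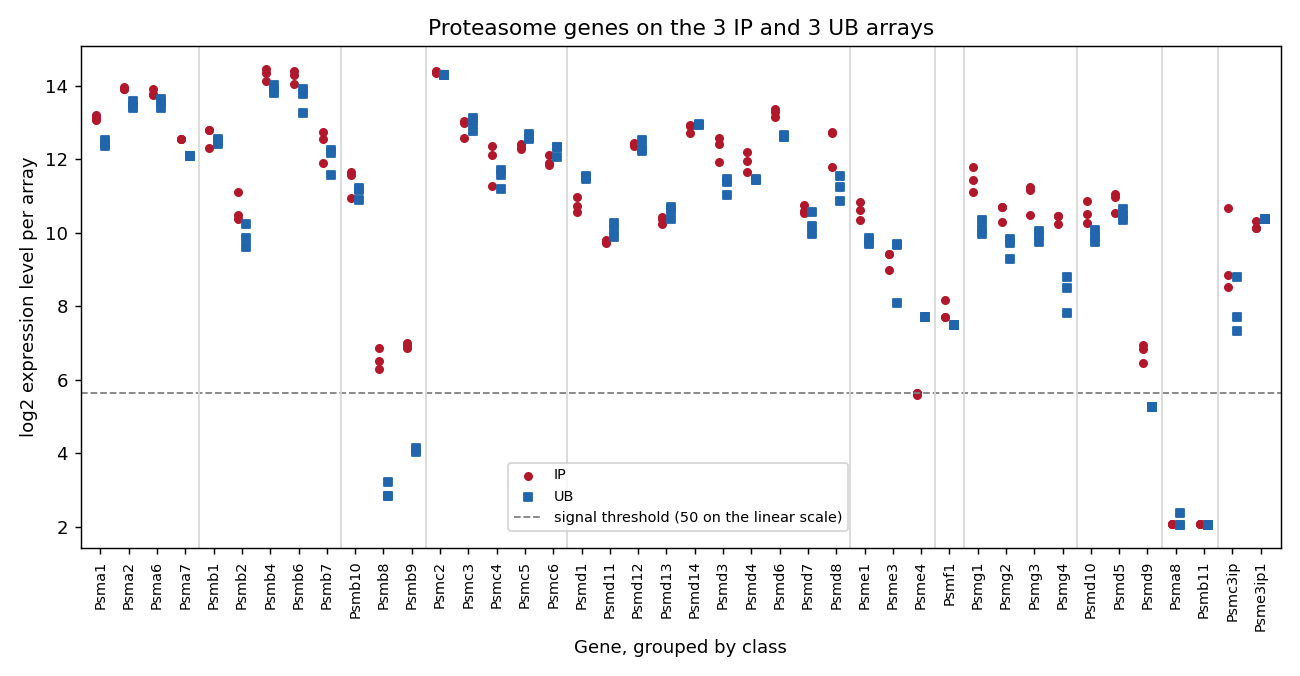
Log2 level of each of the 42 genes on the 3 IP arrays (circles) and 3 UB arrays (squares), grouped by class, with a dashed line at 50 on the linear scale. Psmb8, Psmb9 and Psmd9 lie above the line in IP and below it in UB on every array, and Psma8 and Psmb11 lie near the floor on all 6.

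Of the 3 inducible subunits, 2, Psmb9 and Psmb8, had signal in IP alone, and Psmb10 had signal in both fractions. Psmb9 (probe set 16912_at), the inducible counterpart of the catalytic subunit Psmb6, stood at 6.85, 6.95 and 6.997 on the IP arrays and at 4.08, 4.04 and 4.14 on the UB arrays. Psmb8 (16913_at), the inducible counterpart of Psmb5, stood at 6.31, 6.52 and 6.87 in IP and at 2.82, 2.82 and 3.21 in UB. For both genes every IP array lay above every UB array. Because UB was below signal, folds are bounds computed against 50: Psmb9 was at least 2.45-fold higher in IP and Psmb8 at least 1.89-fold higher. The adjusted p-values of the fit (5.97e-07 and 5.30e-05) belong to the measured levels, UB below signal included. With levels under 50 raised to 50 they were 6.90e-06 and 0.00437, and the differences of 1.29 and 0.92 were then smaller in size than those of Psmg4 (2.01) and Psme4 (-2.06). Signal in IP alone, on all 3 arrays, was seen for 352 of 17306 probe sets (2.03%), and among the 42 genes for Psmb8, Psmb9 and the chaperone gene Psmd9. The reverse, signal in UB alone, was seen for 7.94% of probe sets and for none of the 42 genes (0). Both subunits remained dim in IP, at most 1.35 above the signal threshold on the log2 scale.

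Psmb10 (19171_at), the inducible counterpart of Psmb7, was not called. It stood at 10.96, 11.67 and 11.57 in IP and at 10.90, 11.17 and 11.21 in UB, so that it had signal everywhere and the groups overlapped. Its difference of 0.30 ± 0.22 (SE) had an adjusted p of 0.277 (95% interval -0.29 to 0.89). Without IP replicate 1 it was called higher, at 0.58 (adjusted p = 0.0159). Within each array, where the offset cancels, Psmb10 minus Psmb7 was -0.903 ± 0.218 (SD, n = 3) in UB and -1.001 ± 0.0698 in IP.

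The promoters of Psmb9 and Psmb8 are shown because these genes lie close together in the MHC and had signal in IP alone, with the promoter of Psmb6, the constitutive counterpart of Psmb9, for comparison. Sequences are from RefSeq, assembly GRCm38.p6, 250 bases before to 50 after the start of the gene, 5′ to 3′ on the strand of the gene. Capitals mark matches, on either strand, to the interferon-gamma activated site TTCNNNGAA, the interferon response core GAAANNGAA, the GC box GGGCGG, the antioxidant response core TGACNNNGC, CCAAT and TATAAA. No 2 matches overlap in these windows.
Psmb9, chr17:34187281-34187580, minus strand: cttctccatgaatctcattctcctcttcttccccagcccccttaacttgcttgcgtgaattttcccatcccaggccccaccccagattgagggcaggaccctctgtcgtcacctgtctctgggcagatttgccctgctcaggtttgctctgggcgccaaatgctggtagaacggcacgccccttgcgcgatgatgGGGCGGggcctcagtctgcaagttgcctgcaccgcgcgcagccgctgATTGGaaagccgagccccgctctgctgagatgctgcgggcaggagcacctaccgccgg
Psmb8, chr17:34197945-34198244, plus strand: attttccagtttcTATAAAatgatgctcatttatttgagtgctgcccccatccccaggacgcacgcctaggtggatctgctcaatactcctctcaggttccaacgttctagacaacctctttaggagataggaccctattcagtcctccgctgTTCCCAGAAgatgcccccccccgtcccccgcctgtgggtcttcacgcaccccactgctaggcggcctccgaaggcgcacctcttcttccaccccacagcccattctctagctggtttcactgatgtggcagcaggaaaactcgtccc
Psmb6, chr11:70525107-70525406, plus strand: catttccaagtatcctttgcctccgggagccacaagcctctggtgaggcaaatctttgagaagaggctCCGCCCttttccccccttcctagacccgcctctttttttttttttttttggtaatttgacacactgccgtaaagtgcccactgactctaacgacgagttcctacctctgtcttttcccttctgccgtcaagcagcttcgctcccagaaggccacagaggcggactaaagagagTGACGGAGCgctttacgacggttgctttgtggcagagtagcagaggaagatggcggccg
The window of Psmb8 held 1 match to the interferon-gamma activated site, which 8.30% of all 32851 promoter windows of this length held, and a TATAAA (13.6%). The window of Psmb9 held a GC box (35.7% of all windows) and a CCAAT (37.4%), and that of Psmb6 a GC box and an antioxidant response core (12.4%). The window of Psmb10, also inducible, is not shown and held 0 of these matches. The interferon response core was in no inducible window. It was in the windows of 6 of the 34 members with a window, Psmb4, Psmc2, Psmd4, Psmd9, Psme1 and Psmg4 (8.56% of all windows). A match is a string of letters and not evidence of binding.

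In that assembly Psmb9, Tap1, Psmb8 and Tap2 follow each other on chromosome 17. Psmb9 and Tap1, which encodes a subunit of the peptide transporter of antigen presentation, point away from each other with 225 bases between them, and their promoter windows share 275 bases. Tap1 had no signal on any array, at 2.09 in IP and 2.05 in UB throughout. Tap2, the other transporter subunit, was below signal too, at 3.01, 3.01 and 3.98 in IP and at 2.05 in UB. Psmb9 thus had signal in IP where its neighbour across the shared window had none.

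Other genes of antigen processing went both ways. Tapbp, which encodes the peptide loading factor tapasin, stood at 6.96 ± 0.05 (SD, n = 3) in IP and had the same level of 3.70 on all UB arrays. It was at least 2.49-fold higher in IP (adjusted p = 2.51e-08). Tapbp passed the filter through IP alone and so had to differ, and its equal UB values make this p small. The MHC class I heavy chain gene H2-D1 stood at 9.10, 8.57 and 10.13 in IP and at 6.87, 6.85 and 6.84 in UB, 5.33-fold higher (adjusted p = 0.00518). B2m, the light chain gene, was 1.92-fold lower in IP (8.46 ± 0.08 against 9.41 ± 0.56, adjusted p = 0.0404). Irf1, a transcription factor of the interferon response, had signal in both fractions and differed by 0.28 ± 0.17 (adjusted p = 0.197). H2-K1, Erap1 and Nlrc5 were below signal on all 6 arrays. The list had 9 genes with a probe set and 4 tested, of which 2 were called higher and 1 lower. Of all tested probe sets, 30.9% were called higher and 43.5% lower.

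**Figure D2:**
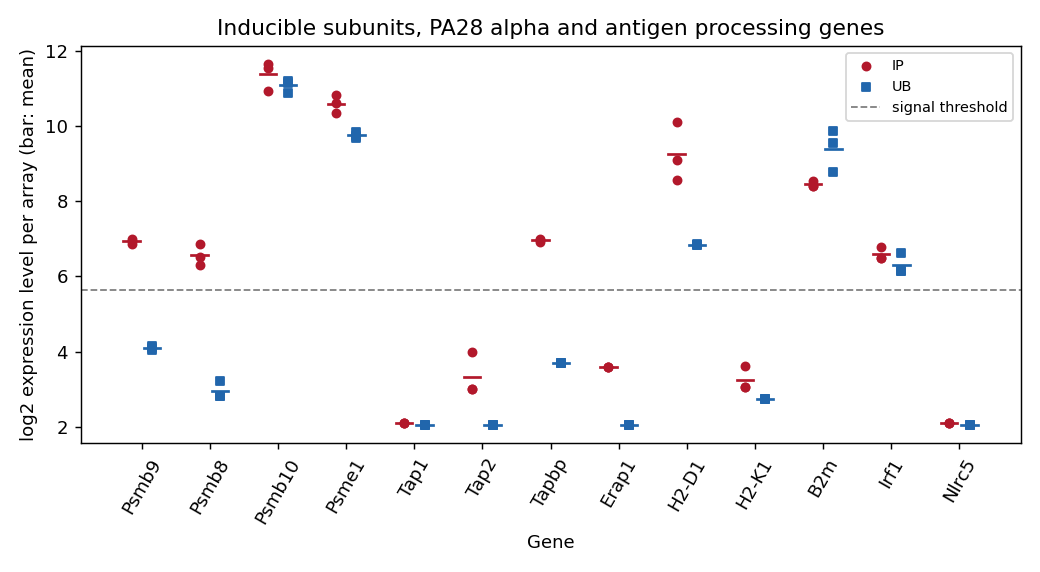
Log2 level per array of the inducible subunits, Psme1 and genes of antigen processing, with bars at the means of 3 arrays and a dashed line at the signal threshold. Psmb9, Psmb8 and Tapbp cross the line from UB to IP, Psmb10 is high in both fractions, and Tap1 is at the floor in both.

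Markers of microglia and endothelium, cell types known for inducible subunits, are given beside these values, and their part in them was not tested. Of 11 microglial markers with a probe set, 6 were tested, and of these limma called 0 higher and 5 lower in IP, and 0 were higher at an unadjusted p under 0.05. The 5 (Csf1r, Aif1, C1qb, Tyrobp and Fcer1g) passed the signal filter through the UB arrays alone and so had to differ. Csf1r was at least 3.78-fold and Tyrobp at least 3.43-fold lower. Csf1r, Cx3cr1, C1qb, C1qc, Tmem119, P2ry12 and Fcer1g sat at the floor of the IP arrays throughout, and 1 marker, C1qa, had signal there (7.75 against 6.88 in UB, adjusted p = 0.120). Cx3cr1, Tmem119 and P2ry12 had no signal in UB either (means of 2.73, 4.68 and 4.18). The summed linear level of the microglial list was 233 to 279 in IP and 1040 to 1279 in UB. Of 7 endothelial markers, 1, Esam, was tested and called higher (at least 4.09-fold). Esam passed the filter through the IP arrays alone and so had to differ. Pecam1, Flt1, Tek and Cdh5 were at the lowest level on all IP arrays and had no signal in UB either, at 2.05. Cldn5 and Slco1a4 had signal on 2 UB arrays and on no IP array, and were not tested. The endothelial list summed to 227 to 239 in IP and 119 to 242 in UB.

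Of 9 constitutive core genes, 5 were called higher in IP by small amounts and none lower (7 were higher and 0 lower at an unadjusted p under 0.05). All 4 alpha subunit genes with a probe set were called higher, with differences from 0.28 to 0.68, and in each the groups did not overlap. Psma1 (26440_at) stood at 13.22, 13.11 and 13.06 in IP and at 12.45, 12.37 and 12.52 in UB, 1.60-fold higher (difference 0.68 ± 0.06, adjusted p = 0.000385). Psma6 had the smallest difference, at 13.74, 13.91 and 13.78 in IP and 13.55, 13.65 and 13.39 in UB (0.28 ± 0.09, adjusted p = 0.0331). Psma2 and Psma7 lay between them, at 0.44 and 0.47. Psma6 lost its call when IP replicate 2 (adjusted p = 0.0584), IP replicate 3 (0.189) or UB replicate 1 (0.358) was left out, and its value was -0.04 with quantile normalization. With the control offset taken per array, 1 of the 4 alpha genes, Psma1, was called, and the adjusted p-values of Psma2, Psma6 and Psma7 were 0.186, 0.414 and 0.163. That setting left 2 of the 9 core genes called, and so did quantile normalization, where Psma2 was at 0.11 (adjusted p = 0.312). The 4 genes encode ring subunits that carry no peptidase site and gate the entry to the barrel.

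Among the 5 constitutive beta genes, 1 was called higher and none lower (30.9% and 43.5% of all tested probe sets), and all 5 differences were positive. Psmb4 (19172_at) stood at 14.35, 14.12 and 14.46 in IP and at 14.03, 13.82 and 13.88 in UB (0.40 ± 0.11, adjusted p = 0.0244), a call lost when IP replicate 3 (adjusted p = 0.152), UB replicate 1 (0.102) or UB replicate 2 (0.0669) was left out. Psmb2 had the largest difference, at 11.11, 10.49 and 10.36 in IP and 9.86, 9.61 and 10.24 in UB, without overlap and without a call (0.75 ± 0.27, adjusted p = 0.0586). It was called without UB replicate 3 (1.06, adjusted p = 0.0371). Psmb1 had the smallest difference, at 12.30, 12.79 and 12.80 against 12.42, 12.54 and 12.49 (0.15 ± 0.16, adjusted p = 0.432), and was at -0.05 without IP replicate 3 or UB replicate 1. Without IP replicate 1 it was called, at 0.37 (adjusted p = 0.00324).

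The catalytic subunit genes with a probe set, Psmb6 and Psmb7, varied with the preparation. Psmb6 (19175_at), the caspase-like site, stood at 14.04, 14.30 and 14.41 in IP and at 13.27, 13.90 and 13.78 in UB. Psmb7 (19177_at), the trypsin-like site, stood at 11.89, 12.74 and 12.56 in IP and at 11.56, 12.25 and 12.18 in UB. Replicate 1 was the lowest in both fractions for both genes. Neither was called without pairing the fractions (adjusted p = 0.0509 and 0.299). In the fit with a replicate block, both were called higher, Psmb6 by 0.60 ± 0.09 (adjusted p = 0.0169) and Psmb7 by 0.40 ± 0.04 (adjusted p = 0.00832). Without IP replicate 1 or UB replicate 2, Psmb6 was called unpaired as well (adjusted p = 0.0473 and 0.0464).

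That low replicate 1 was common. Among the 35 tested members without tied values, replicate 1 was lowest in both fractions for 16 (45.7%), against 38.6% of the 6180 untied tested probe sets. The 3′ to 5′ difference of the Gapdh control, a sign of RNA length, was largest in replicate 1, at 2.18 in IP and 2.03 in UB, against 1.44 to 1.72 on the other 4 arrays. That of beta-actin was 3.37, 3.02 and 3.07 in IP and 3.68, 3.43 and 3.26 in UB, highest in replicate 1 within each fraction, and UB lay above IP in every preparation. The part of RNA length in the members' values was not tested.

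Of 15 regulatory particle genes, 5 were called higher, close to the 30.9% of all tested probe sets, and 3 lower, against 43.5%, with a median difference of 0.06 (0.44 for the 9 constitutive core genes). Within each array, the mean level of the 15 regulatory genes minus that of the 9 core genes was -1.15, -1.04 and -1.01 in IP and -0.68, -0.76 and -0.81 in UB. The groups did not overlap, and the change of -0.31 does not rest on the offset between fractions. It was -0.21 with quantile normalization and -0.24 without both arrays of replicate 1. Only the change can be read, since probe sets differ in brightness.

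Among the 5 ATPase genes, which drive unfolding and form the base of the regulatory particle, differences lay between -0.29 and 0.43. Psmc4 had the most positive difference, at 11.29, 12.13 and 12.37 in IP and 11.19, 11.72 and 11.57 in UB, with overlap and no call (adjusted p = 0.295). It was called without IP replicate 1 (0.82, adjusted p = 0.0277). Psmc6 had the most negative, at 11.84, 12.13 and 11.90 in IP and 12.34, 12.05 and 12.34 in UB (-0.29 ± 0.12, adjusted p = 0.0870), and was called lower without UB replicate 2 (-0.36, adjusted p = 0.0472). Psmc5 was called lower (-0.26 ± 0.05, adjusted p = 0.00957; 0.08 with the median of tested probe sets made equal), a call lost when IP replicate 1 (adjusted p = 0.0625), IP replicate 2 (0.0641) or UB replicate 3 (0.246) was left out. Psmc2 was called higher by 0.09, which is smaller than the SE of the offset. Its value was -0.02 without IP replicate 3 and -0.08 without UB replicate 1 (adjusted p = 0.422 and 0.0217). The UB levels of Psmc2 were equal on all arrays, so leaving out UB replicate 1 moved its value through the offset alone. Psmc3 had a difference of -0.11 and no call (adjusted p = 0.585).

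The 10 non-ATPase genes of the regulatory particle spread more widely, from -0.75 to 1.19. Psmd8, a lid subunit gene, had the largest increase, at 11.79, 12.72 and 12.74 in IP and at 10.88, 11.56 and 11.25 in UB, 2.28-fold higher without overlap (adjusted p = 0.0290). Psmd8 lost its call when IP replicate 2 (adjusted p = 0.0800), IP replicate 3 (0.112), UB replicate 1 (0.130) or UB replicate 3 (0.0600) was left out. Psmd3, another lid subunit gene, was 2.02-fold higher (12.31 ± 0.35 against 11.29 ± 0.23, adjusted p = 0.0119), a call lost without IP replicate 3 or UB replicate 1 (adjusted p = 0.0508 and 0.0660). Psmd6, also of the lid, was 1.57-fold higher (adjusted p = 0.000547) and kept that call without any 1 array.

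Psmd1, the gene of a large scaffold subunit of the base, had the largest decrease. It stood at 10.97, 10.74 and 10.55 in IP and at 11.55, 11.46 and 11.51 in UB, 1.69-fold lower without overlap (-0.75 ± 0.12, adjusted p = 0.00317). The call held without any 1 array and was lost without both arrays of replicate 2 (adjusted p = 0.0679). With overall medians equalized between arrays the value was 0.80. Psmd11, a lid subunit gene, was called lower by a margin (-0.32 ± 0.11, adjusted p = 0.0484; 0.02 with the median of tested probe sets made equal), and lost its call when IP replicate 1 (adjusted p = 0.130), IP replicate 2 (0.179), IP replicate 3 (0.0604) or UB replicate 3 (0.314) was left out. Lid subunit genes thus lay on both sides of 0.

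Of the subunits that handle ubiquitin itself, Psmd4, a ubiquitin receptor gene, was called higher (0.48 ± 0.15, adjusted p = 0.0376). That call was lost with a replicate block (adjusted p = 0.0630) and without any 1 array other than IP replicate 1 (adjusted p from 0.0528 to 0.229). Psmd14, the deubiquitinase gene of the lid, stood at 12.94, 12.90 and 12.71 in IP and at 12.95, 12.93 and 12.93 in UB (-0.09 ± 0.07, adjusted p = 0.295, 95% interval -0.26 to 0.09). Psmd14 was called lower without IP replicate 3 (-0.13, adjusted p = 0.0124) and was at 0.05 without UB replicate 3. Its own levels move the other way in these 2 fits, since the mean of the fraction rises without that array. Both moves came from the offset, taken anew from the arrays kept. The lid genes Psmd7, Psmd12 and Psmd13 were not called (0.40, 0.06 and -0.23). Psmd7 was called without UB replicate 1 (0.39, adjusted p = 0.0400), and Psmd12 was at -0.07 without IP replicate 3.

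**Figure D3:**
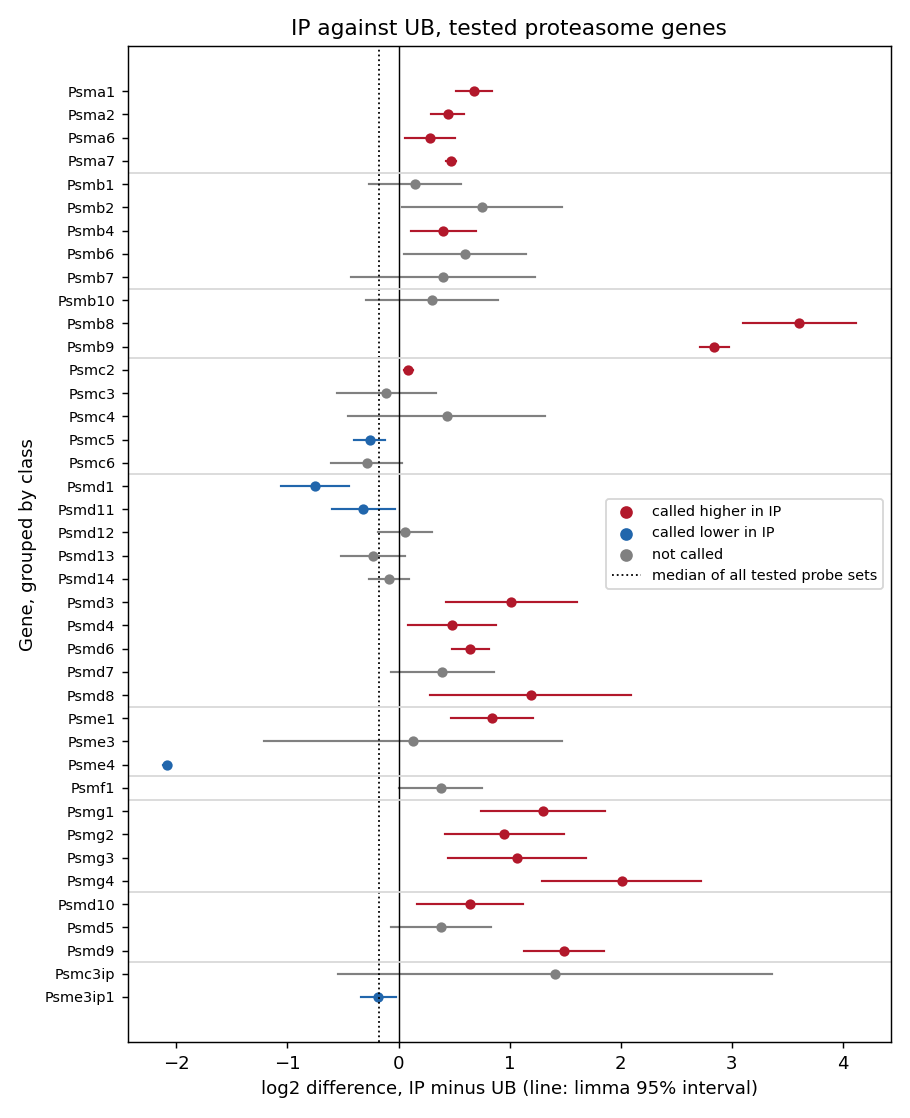
Difference in log2 level, IP minus UB, of the 40 tested genes with limma's 95% interval, grouped by class. Psmb8 and Psmb9 lie farthest to the right, measured against UB levels below signal, and Psme4 farthest to the left, and all 4 core chaperone genes (Psmg) lie to the right of 0.

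The assembly chaperones were mostly higher in IP. All 4 genes of the chaperones that build the core particle were called higher and none overlapped. Of all tested probe sets, 30.9% were called higher, and in 33.4% all IP values lay above all UB values. Psmg4 (69666_at) had the largest increase, at 10.24, 10.46 and 10.46 in IP and at 7.83, 8.79 and 8.51 in UB, 4.03-fold higher (2.01 ± 0.27, adjusted p = 0.00199). Psmg1 (56088_at) was 2.47-fold higher, at 11.44, 11.10 and 11.79 against 10.36, 10.09 and 9.98 (adjusted p = 0.00391). Psmg3 stood at 10.49, 11.16 and 11.25 in IP and 9.74, 10.04 and 9.93 in UB (1.06 ± 0.24, adjusted p = 0.0119). Psmg2, the partner of Psmg1, had the smallest increase, at 10.29, 10.70 and 10.70 against 9.28, 9.82 and 9.73 (0.95 ± 0.20, adjusted p = 0.0104). The Psmg2 call was lost without IP replicate 3 (adjusted p = 0.0554), and the Psmg3 call without IP replicate 3 or UB replicate 1 (adjusted p = 0.0514 and 0.0713).

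Of 3 chaperone genes of the base, 2 were called higher. Psmd9 (67151_at) stood at 6.45, 6.83 and 6.94 in IP and at 5.25 on all UB arrays, at least 2.14-fold higher (adjusted p = 0.000448, and 0.00156 with levels under 50 raised to 50). Psmd10, known as gankyrin, was 1.56-fold higher (10.55 ± 0.29 against 9.90 ± 0.17, adjusted p = 0.0272), and lost its call when IP replicate 3 (adjusted p = 0.107), UB replicate 1 (0.0781) or UB replicate 2 (0.0725) was left out. Psmd5 stood at 10.54, 10.99 and 11.05 in IP and at 10.34, 10.64 and 10.45 in UB, with overlap and no call (0.38 ± 0.17, adjusted p = 0.0978). Without IP replicate 1 it was called (0.60, adjusted p = 0.0108). Of the 7 chaperone genes together, limma called 6 higher and 0 lower, with 0 lower at an unadjusted p under 0.05 as well, with a median difference of 1.06. The shares of all tested probe sets were 30.9% higher and 43.5% lower.

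Of the 3 activator genes, 1 was called higher, 1 lower and 1 not at all, where 30.9% of all tested probe sets were called higher and 43.5% lower. Psme1 (19186_at), which encodes a subunit of the interferon-inducible cap of the core, stood at 10.35, 10.84 and 10.63 in IP and at 9.70, 9.75 and 9.85 in UB, 1.79-fold higher without overlap (0.84 ± 0.14, adjusted p = 0.00410). The Psme1 call was lost without both arrays of replicate 3 (adjusted p = 0.0557). Psme3 (19192_at), the nuclear member of that family, stood at 8.98, 9.43 and 9.43 in IP and at 8.10, 9.66 and 9.69 in UB. UB replicate 1 lay far below the other UB arrays, and the difference of 0.13 ± 0.51 was not called (adjusted p = 0.830). Without that array it was -0.56 (adjusted p = 0.0561), and without both arrays of replicate 1 it was called lower, at -0.35 (adjusted p = 0.00154). The IP values left in that last fit were equal, which makes its p small.

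Psme4 (103554_at), the gene of a large ATP-independent activator known for the degradation of acetylated histones in testis, was the one member at least 2-fold lower in IP. It stood at 5.63, 5.60 and 5.63 in IP, at the signal threshold, and at 7.71 on all UB arrays, 4.24-fold lower (-2.08 ± 0.01, adjusted p = 1.72e-08). Equal values on the arrays of a fraction come from the deposited processing and make this SE small. Within arrays, Psme4 minus Psme1 was -4.99 ± 0.26 (SD, n = 3) in IP and -2.06 ± 0.08 in UB. Psmf1, the gene of an inhibitor of the core, stood at 7.72, 7.72 and 8.18 in IP and at 7.49 on all UB arrays, without overlap and without a call (0.38 ± 0.14, adjusted p = 0.0630). It was called without IP replicate 1 or IP replicate 3 (0.52 and 0.12, adjusted p = 0.0466 and 0.00239). Without IP replicate 3 the values left were equal within each fraction, which makes that p small, and 0.12 is less than the SE of the offset.

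The tissue-restricted subunits had no signal. Psma8, of male germ cells, and Psmb11, of the thymic cortex, lay between 2.05 and 2.37 on all 6 arrays. Of the genes that share only the name pattern, Psmc3ip, a meiotic recombination factor gene, stood at 10.68, 8.86 and 8.52 in IP and 8.80, 7.71 and 7.33 in UB, highest in replicate 1 of both fractions. It was not called unpaired (1.41 ± 0.74, adjusted p = 0.146) and was called in the fit paired by replicate number (1.41 ± 0.20, adjusted p = 0.0143). Psme3ip1 was called lower (-0.18 ± 0.06, adjusted p = 0.0416), less than the SE of the offset, and lost that call with the block (adjusted p = 0.0695) and when any of IP replicates 1 and 2 and UB replicates 2 and 3 was left out (adjusted p from 0.137 to 0.670).

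Of 15 tested proteasome genes outside the name pattern, 5 were called higher and 6 lower, close to the shares of all tested probe sets (30.9% and 43.5%), with a median difference of 0.03. Pomp, the gene of the maturation factor that works with the Psmg chaperones, was 2.54-fold higher in IP (13.64, 13.76 and 13.76 against 12.33, 12.39 and 12.39, adjusted p = 7.04e-06). Zfand5, which encodes a ubiquitin-binding activator of the proteasome, was at least 1.39-fold higher (adjusted p = 1.98e-08). Zfand5 passed the filter through IP alone and so had to differ, and its equal IP values make this p small. Genes of enzymes that act on ubiquitin chains at the proteasome were lower: the ligase gene Ube3c by 1.84-fold (adjusted p = 0.0101) and the deubiquitinase gene Uchl5 by 1.68-fold (adjusted p = 0.00178).

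Of the factors that control subunit genes, Nfe2l1, which raises them when the proteasome is impaired, had signal in both fractions and differed by -0.08 ± 0.14 (adjusted p = 0.647). Ngly1, whose enzyme is needed to activate that factor, was 1.94-fold higher in IP (adjusted p = 4.01e-05). Nfe2l2, its relative of the oxidative stress response, was at the lowest level on all IP arrays and at 7.27, 7.68 and 7.58 in UB, at least 3.64-fold lower in IP (adjusted p = 1.42e-06). Nfe2l2 passed the filter through UB alone and so had to differ, and its equal IP values make this p small. The partner gene Mafg was 1.49-fold lower (adjusted p = 0.0102). Of 5 tested genes of this list, 1 was called higher and 2 lower, against 30.9% and 43.5% of all tested probe sets. Of the ubiquitin and E1 enzyme list only Uba6 was tested, and it was not called (-0.17, adjusted p = 0.269).

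The lid of the regulatory particle is built like the COP9 signalosome and the translation factor eIF3. The counts below stand beside the 30.9% of all tested probe sets called higher and the 43.5% called lower. Of 8 COP9 genes tested, 4 were called higher and 1 lower (median 0.27, largest for Cops7a at 0.99). Of 10 eIF3 genes, limma called 0 higher and 1, Eif3a, lower (median -0.21). At an unadjusted p under 0.05, 0 were higher and 2 lower. Of 8 genes of the CCT chaperonin, another large barrel, limma called 0 higher and 4 lower, the same as at an unadjusted p under 0.05, with Tcp1 2.07-fold lower (median -0.18). Whether the proteasome genes differ from these was not tested.

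**Figure D4:**
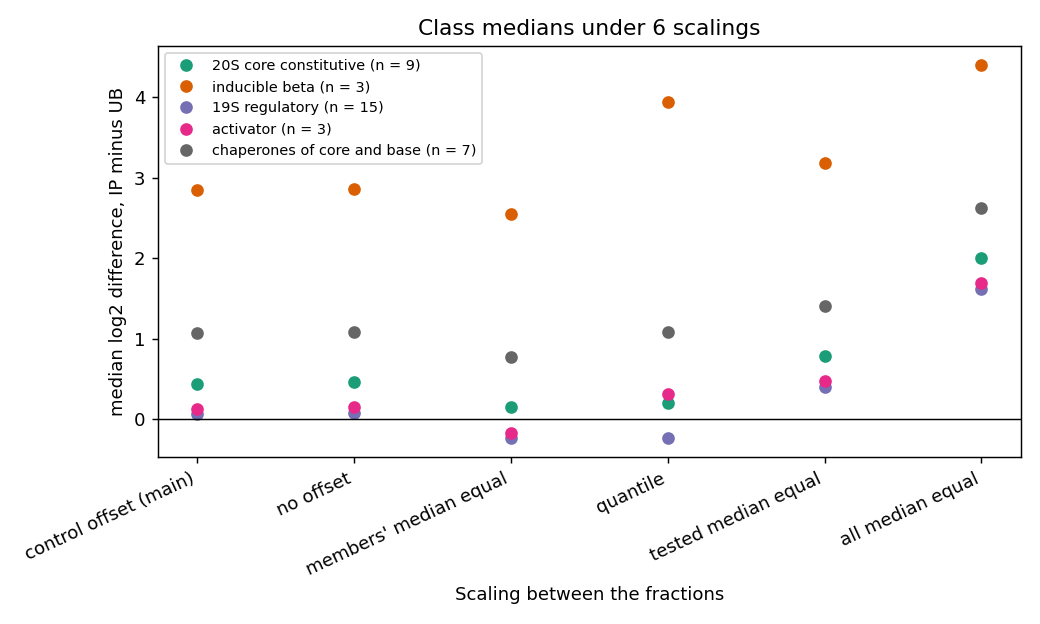
Median difference, IP minus UB, of 5 classes of proteasome genes under 6 scalings of the fractions, in log2 units. The inducible class lies highest under all 6, but its median rests on genes below signal in UB and is 0.92, under the 1.06 of the chaperones, with levels under 50 raised to 50. All classes shift up when overall medians are equalized.

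The scaling between the fractions set how many members were called. When the arrays' overall medians were equalized, which moved all differences up by 1.56 (log2), 39 of the 40 were called higher and 1, Psme4, lower. With the members' own median made equal, 11 were called higher and 6 lower. This gives each gene relative to the 40 tested genes, chaperones, activators, Psmc3ip and Psme3ip1 included, and not to the complex alone. Of the core, limma then called 0 of 9 (0 at an unadjusted p under 0.05), and of the regulatory particle 2 were called higher and 5 lower. Psmb8, Psmb9, Psmd9, Psmg1 and Psmg4 as higher and Psme4 as lower were the 6 calls that held under every alternative that tested them. Psmb8, Psmb9 and Psmd9 had signal in IP alone and so had to differ, and their holding is no added support. Psme4 had equal values on all UB arrays, which make its SE small. Psmb8 ranged from 0.92 to 5.17, Psmg4 from 1.57 to 3.57 and Psme4 from -2.38 to -0.53.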

How the data were processed

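The 6 arrays are Affymetrix expression arrays of RNA from 3 preparations of habenula, each giving an IP and a UB fraction. The authors deposited log2 expression values, made with GCRMA per the submitters' processing notes, with the fractions normalized apart; its version was not stated there. Gene symbols come from the platform annotation, which named 16464 of 17306 probe sets.

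From these values the mean of 18 biotinylated control probe sets was made equal between the fractions (IP minus UB 0.0156, SE 0.212 over arrays). Fits with arrays left out took this offset anew from the arrays kept, which adds the same shift to all genes. Probe sets with at least 3 of 6 arrays at 50 or more on the linear scale were tested (8960) with limma 3.58.1 in R 4.3.3, with trended moderated variances and Benjamini-Hochberg adjustment over all of them. An "at least" fold sets a fraction whose 3 arrays are all under 50 at 50. The script was tested on simulated data. Values equal within 1e-06 on all 3 arrays of a fraction occurred in 2780 tested probe sets, and give standard errors that are too small. Values equal on a pair of arrays do the same when the other array is left out.

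The labels tie same-numbered IP and UB arrays to 1 preparation. Their deviations from the fraction means correlated at 0.659, 0.540 and 0.313 over 6180 untied probe sets. Arrays of different numbers also correlated, IP 3 with UB 2 at 0.354 and IP 2 with UB 3 at 0.279, so these values set replicate 1 apart and the pairing of the others rests on the labels. The main fit has no block, and blocked values are given where a call changed.

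Genes were named by symbol class. Arrays are given in full for the inducible subunits, their counterparts, the activators and, in each other class, the members with the largest change in each direction, with others by difference or count. Other genes shown in full were chosen after their values were seen. The members and all lists were chosen with earlier results of these data known. Differences of the genes are read against all tested probe sets, and no test over the list was made.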

Additional observations from a re-analysis of the deposited data

How the results depend on the processing

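Of 24 called genes, the 6 named at the end of the report kept their call under each of the 21 alternatives that tested them. For Psmb8, Psmb9 and Psmd9, which had signal in IP alone, this is no added support. The choice of scaling had the widest effect. The count called higher (19) was 39 with overall medians equalized, 29 with those of tested probe sets and 11 with those of the members. It was 14 with an offset per array and 17 with quantile normalization. The count called lower (5) was 1 and 2 with the first pair of these, 3 without an offset, 2 with an offset per array and 2 without tied probe sets. The median difference (0.42) was 1.98, 0.76 and 0.12 with the 3 equal medians, and the regulatory minus core change (-0.31) was -0.21 with quantile normalization. With the replicate block 21 were called higher and 4 lower, and outside Psmb6, Psmb7, Psmc3ip, Psmd4 and Psme3ip1 the block changed no call. Leaving out arrays or pairs gave 11 to 25 higher, 2 to 6 lower, medians of 0.23 to 0.58 and regulatory minus core changes of -0.37 to -0.24. The offset taken anew in these fits is part of all these moves but those of the regulatory minus core change.

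Some signs turned, among them that of Psmd1 (-0.75), and the cause was not tested beyond the shift that each scaling makes. With overall medians equalized, Psmc3 was at 1.45, Psmc5 at 1.30, Psmc6 at 1.27, Psmd1 at 0.80, Psmd11 at 1.24, Psmd13 at 1.33, Psmd14 at 1.47 and Psme3ip1 at 1.37. With those of tested probe sets, Psmc3 was at 0.23, Psmc5 at 0.078, Psmc6 at 0.051, Psmd11 at 0.022, Psmd13 at 0.11, Psmd14 at 0.25 and Psme3ip1 at 0.16. With quantile normalization, Psma6 was at -0.041, Psmb1 at -0.10, Psmc2 at -0.24 and Psmd12 at -0.18. With the members' medians equalized, Psma6 was at -0.013, Psmb1 at -0.15, Psmc2 at -0.21, Psmd12 at -0.24 and Psme3 at -0.17. Over the left-out arrays and pairs, Psmb1 ranged from -0.051 to 0.37, Psmc2 from -0.080 to 0.23, Psmd12 from -0.069 to 0.17, Psme3 from -0.56 to 0.55, Psmc3 from -0.37 to 0.10 and Psmd14 from -0.25 to 0.054. Dim genes (Psmb8, Psmb9, Psmd9, Psme4) have a bounded or near-threshold level in 1 fraction, so their folds are limited by signal over background.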
